A study of Mus musculus with 20 samples.

Results

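Secreted epithelial products and apolipoproteins were followed in the mouse ileum through 6 genes: Sectm1b, Fam3b, Scgb3a1, Apoa1, Apoa4 and Lrp8. The genes were chosen by name, with earlier results of these data known, and every assay carrying one of the names was taken. This gave 7 of the 648 assays of a real-time PCR panel, and 6 of its 584 gene symbols; Apoa1 had 2 assays. Of the 7 assays, 6 amplified in at least some samples, and Apoa4 amplified in none. Total RNA of the ileal mucosa was measured in 20 samples, 5 in each of 4 groups. The CEC group was given DNBS by the intrarectal route (dinitrobenzene sulfonic acid, a hapten used to cause colitis) and an oral treatment named CEC, an abbreviation the labels do not expand. The Nissle group received intrarectal DNBS and oral Nissle, the name of a probiotic Escherichia coli strain. The DNBS group received intrarectal DNBS and oral phosphate-buffered saline (PBS). The healthy group received PBS by both routes. Strain, age and dose are not given in the sources used here. The design text mentions pooling of RNA from mice, and whether each sample stands for 1 mouse is unclear. All p-values therefore describe the spread among these samples alone, which could be technical.

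The epithelium of the small intestine secretes signalling proteins toward immune cells and exports dietary fat in particles coated with apolipoproteins. Apoa1 encodes the main protein of high-density lipoprotein and is made by liver and small intestine, and Apoa4 encodes an apolipoprotein that enterocytes release during fat absorption. Lrp8, also known as ApoER2, is a receptor of the LDL receptor family that binds reelin and apolipoprotein E. Human SECTM1 is a secreted and transmembrane ligand of the T cell protein CD7, and Sectm1b is a mouse gene of that family. Fam3b encodes a cytokine-like secreted protein first studied in pancreatic islets, and Scgb3a1 encodes a secretoglobin, a small secreted protein known from airway epithelium.

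The panel's own primer and probe sequences are not used here. The regions around the annotated starts of Sectm1b and Apoa1 are shown because the difference of Sectm1b between DNBS and healthy samples and that of Apoa1 between CEC and DNBS samples, by its g1 assay and before centring of row blocks, were the widest among the members measured in every sample. By its m1 assay, or after centring, the Apoa1 difference was narrower than that of Lrp8 between DNBS and healthy samples. The sequences are from RefSeq (GRCm38.p6, 250 bases before to 50 bases after the start), and 5 of the 6 genes had an entry there. Sectm1b lies on the minus strand at chr11:121063520-121063819, between Cd7 and Sectm1a. Apoa1 lies on the plus strand at chr9:46228380-46228679, in the cluster ordered Apoa1, Apoc3, Apoa4, Apoa5. Capitals mark AGGTCA, the nuclear receptor half-site.
Sectm1b: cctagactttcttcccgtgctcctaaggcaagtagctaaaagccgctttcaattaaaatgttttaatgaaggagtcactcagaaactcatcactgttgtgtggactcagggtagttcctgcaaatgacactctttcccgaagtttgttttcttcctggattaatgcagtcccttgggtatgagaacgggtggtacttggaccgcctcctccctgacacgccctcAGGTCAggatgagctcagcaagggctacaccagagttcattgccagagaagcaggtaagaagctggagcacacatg
Apoa1: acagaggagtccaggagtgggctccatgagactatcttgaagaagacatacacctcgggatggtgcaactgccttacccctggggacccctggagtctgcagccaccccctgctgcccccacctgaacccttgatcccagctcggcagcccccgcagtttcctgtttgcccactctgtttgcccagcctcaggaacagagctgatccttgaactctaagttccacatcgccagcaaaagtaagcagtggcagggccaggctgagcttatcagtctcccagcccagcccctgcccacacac
The half-site starts at position 225 of the Sectm1b window, counted from its 5′ end, and 16.3% of 32851 promoter windows of this length hold it on either strand. The Apoa1 window holds no copy. Neither window holds TATAAA, TTCNNNGAA (a STAT palindrome) or TGANTCA (an AP-1 site), searched on both strands and found in 13.6%, 8.3% and 7.81% of all windows. These matches are descriptions of letters and were not tested against the measurements.

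The values were cycle thresholds (Ct), the PCR cycle at which the signal crosses a fixed level, so that a lower Ct means more template. Between 570 and 594 assays gave a value in each sample, and the 544 assays with values throughout averaged 22.6 to 24.3 cycles per sample. The relative level used below is that sample average minus the Ct of the assay, which is on a log2 scale as long as the product doubles with each cycle. It compares samples within an assay and not 1 assay with another. For Nissle 3, 4 and 5, 1 of the labels assigns the samples to the healthy controls, whereas title, description and both treatments assign them to Nissle, and they were kept with Nissle. Markers of the ileal mucosa on the panel were few: 3 of 25 intestinal epithelial markers (Ccl25, Krt8 and Reg3g) were present and measured in every sample. Of 20 leukocyte markers, 8 were present and measured in every sample.

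Assays that stand near each other in the deposited table shifted together within a sample. In 12 blocks of 54 successive rows, the mean shift of a block reached from -1.60 to 1.16 log2 units in healthy 5, from -1.09 to 1.33 in DNBS 5 and from -1.43 to 0.34 in DNBS 1, the 3 samples with the widest spread (SD of the block shifts 0.93, 0.82 and 0.47). The labels do not say what a block of rows is. The assays of Fam3b and Lrp8 lie in the same block, as do Apoa4 and 1 Apoa1 assay. Centring each block moved several differences, and the centred values of the members are given beside those they moved most.

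**Figure D1:**
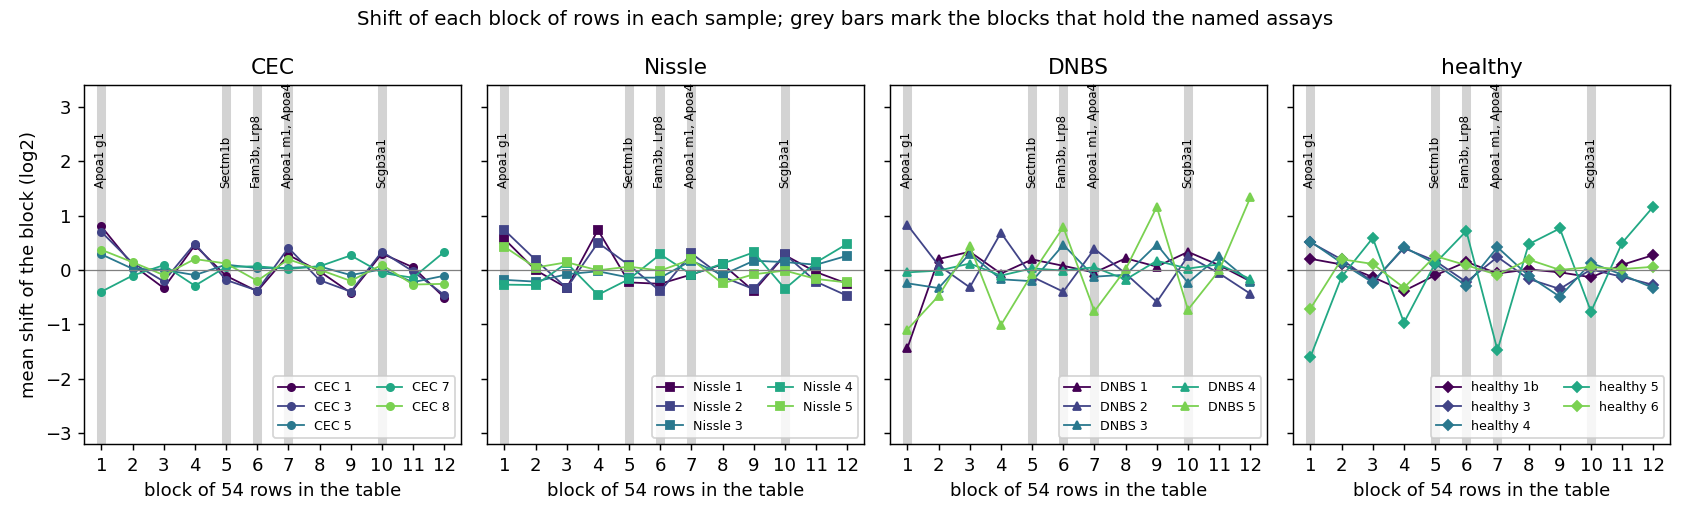
Mean shift (log2) of each of 12 blocks of 54 successive table rows (x axis) in each sample, 1 line per sample and 1 panel per group; grey bars mark the blocks of the named assays. In healthy 5 the block of Apoa1 assay g1 lies 1.60 below zero, and in DNBS 1 the same block lies 1.43 below zero.

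No member passed an adjusted p of 0.05 in any of the 6 comparisons. In limma's fit, 0 of the 5 tested member assays were called in DNBS against healthy, CEC against healthy and Nissle against healthy, where 0.176% of the 569 tested assays were called in each. None was called in CEC against DNBS, Nissle against DNBS or CEC against Nissle, where the share over all assays was 0%. At an unadjusted p under 0.05, limma counted 83, 22, 54, 61, 24 and 8 of 569 assays in these comparisons, in the order just given. The comparisons share their DNBS, CEC, Nissle or healthy samples and are not independent. Since the members were chosen with these contrasts known, nothing is read from the counts. The count of 0 in DNBS against healthy was 1 (Sectm1b) without DNBS 5, without Nissle 1 or with only both groups in the fit, and 3 (Sectm1b, Lrp8 and Fam3b) with sample weights. Detection was compared by Fisher's exact test, and 0 members were called, against 0% of all assays with both outcomes in each comparison. Unadjusted Fisher's p-values under 0.05 numbered 2, 2, 3, 1, 2 and 1 over 58 to 67 assays. The smallest exact p that 5 against 5 samples allow is 0.00794, which could not pass the adjustment for 1 assay alone, so this count of 0 says nothing about a member.

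Sectm1b was lowest in the DNBS group and nearly constant in the healthy group. Its relative level was 3.21, 2.81, 5.12, 5.20 and 4.56 in CEC 1, 3, 5, 7 and 8. In Nissle 1 to 5 it was 2.16, 4.84, 4.11, 4.61 and 4.39. In DNBS 1 to 5 it was 3.65, 1.59, 2.78, 2.80 and 4.40, and in healthy 1b, 3, 4, 5 and 6 it was 5.08, 5.02, 4.99, 4.88 and 4.95. Every DNBS and every Nissle value was under the healthy minimum of 4.88, whereas the CEC samples lay on both sides of the healthy range. Groups did not overlap for 4.75% of tested assays in DNBS against healthy and for 2.99% in Nissle against healthy. After centring of row blocks the Nissle and healthy groups overlapped and the DNBS and healthy groups did not, as was then the case for 7.73% of tested assays in that comparison. The centred healthy values lay between 4.70 and 5.18 (SD 0.19), with 3 CEC samples below that range and 0 above it.

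The group means of Sectm1b were 4.18 ± 1.10 in CEC, 4.02 ± 1.08 in Nissle, 3.04 ± 1.05 in DNBS and 4.98 ± 0.07 in healthy samples (log2, SD, n = 5 each). DNBS minus healthy was -1.94 (SE 0.54, 95% interval -3.06 to -0.82), a contrast known when the gene was chosen and given as a description. CEC stood 1.14 above DNBS (SE 0.54, limma adjusted p = 0.455) and Nissle 0.98 above DNBS (SE 0.54, limma adjusted p = 0.850). CEC minus healthy was -0.80 (limma adjusted p = 0.803) and Nissle minus healthy was -0.96 (limma adjusted p = 0.516). CEC minus Nissle was 0.16, with an interval of -0.96 to 1.28. Without Nissle 1, whose value was 2.16, that difference was -0.31 and Nissle minus healthy was -0.50. Without CEC 3, CEC minus healthy was -0.46, and without DNBS 2, Nissle minus DNBS was 0.61. After centring of row blocks DNBS minus healthy was -1.79, CEC minus DNBS was 1.10 and Nissle minus DNBS was 1.02.

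**Figure D2:**
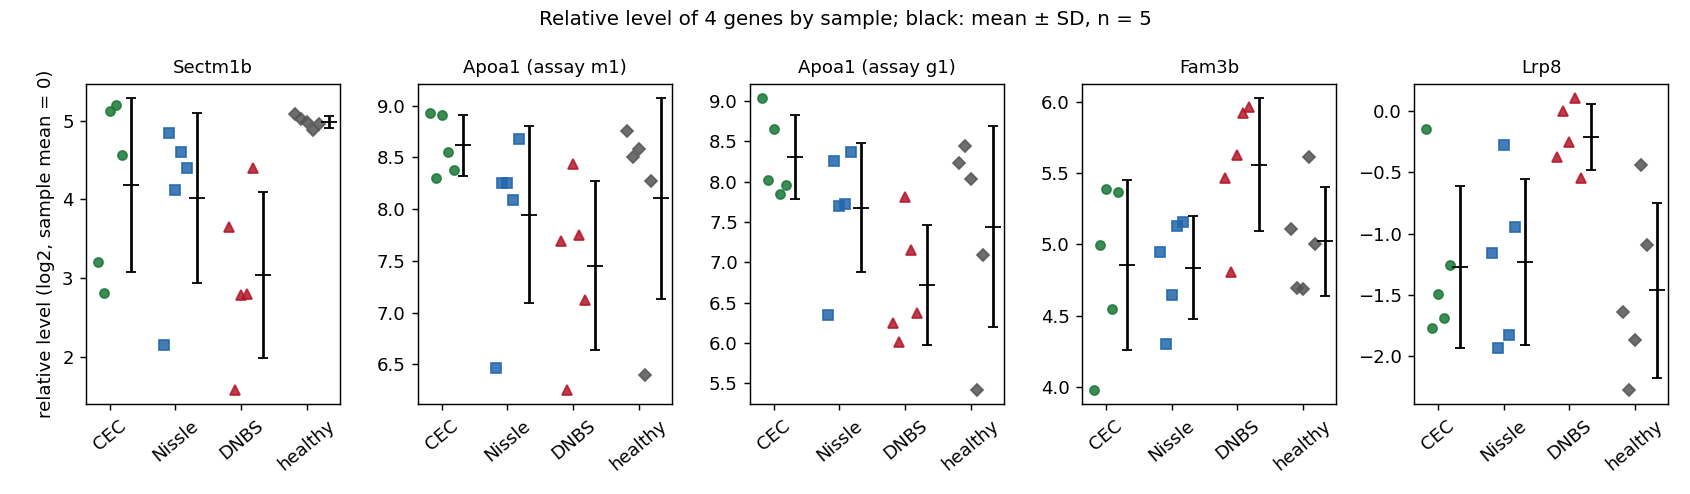
Relative level (log2, y axis) of Sectm1b, both Apoa1 assays, Fam3b and Lrp8 in each sample of the CEC, Nissle, DNBS and healthy groups, with mean ± SD in black (n = 5 each). Healthy Sectm1b values lie between 4.88 and 5.08, while the DNBS values lie between 1.59 and 4.40.

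The samples with low Sectm1b were the samples with high leukocyte markers. The 8 markers were Cd14, Cd4, Cxcr2, Itgam, Itgb2, Ptprc, S100a8 and S100a9. Their average level was 1.01 and 0.99 in CEC 1 and 3, 2.32 in Nissle 1 and 0.43, 1.29, 0.42 and 0.69 in DNBS 1 to 4. It was below 0 in all 13 other samples (-1.40 to -0.13), including DNBS 5 at -1.09 and all healthy samples (-1.21 to -0.67). Sectm1b lay between 1.59 and 3.65 in those 7 samples and between 4.11 and 5.20 in the other 13. After subtraction of group means, r over 20 samples was -0.90 and rho was -0.78 (adjusted permutation p = 0.00292 and 0.0145 over 8 relations with marker averages). Without DNBS 5 and Nissle 1 r was -0.83. After centring of row blocks r was -0.89 and rho was -0.81 (adjusted permutation p = 0.00624 and 0.0137). CEC, Nissle and DNBS each had samples on both sides of the gap, so these values include the step between the sides. Within the 7 samples of high average, Pearson's r was -0.63 (exact permutation p = 0.181) and Spearman's rho was -0.46 (exact permutation p = 0.302). Within the 13 others r was -0.20 (permutation p = 0.496) and rho was -0.25 (permutation p = 0.415). These comparisons were chosen after the values were seen. In bulk RNA, fewer cells of a type and less RNA per cell cannot be told apart, and the part of leukocyte RNA in the Sectm1b differences was not tested.

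**Figure D3:**
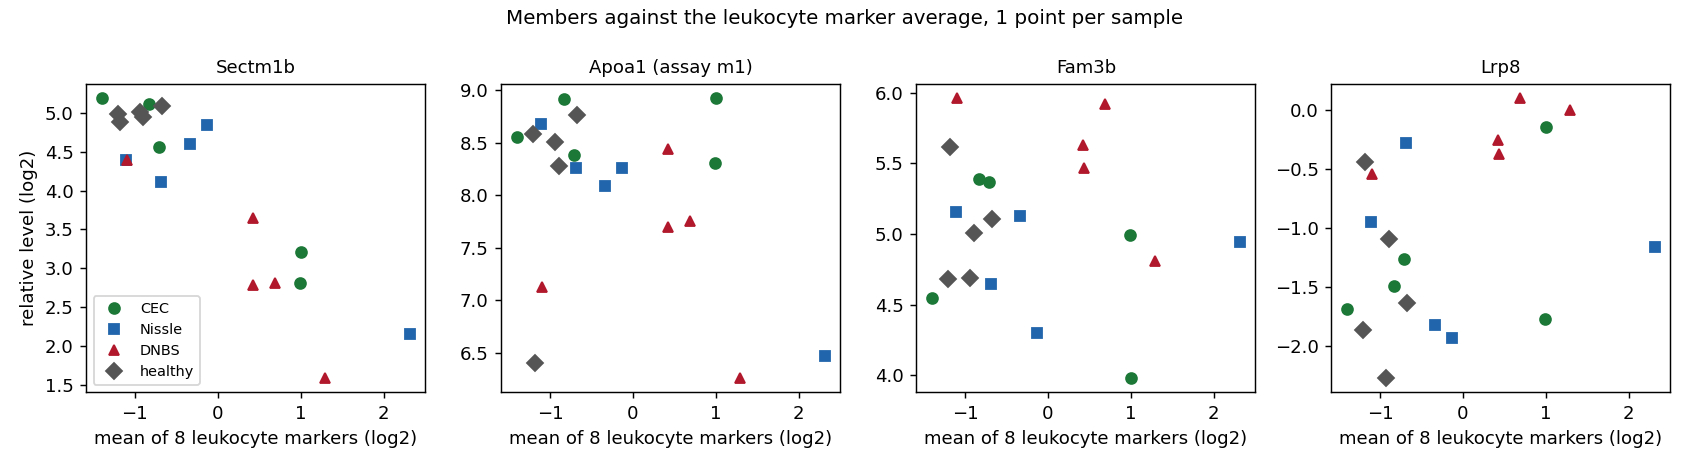
Relative level (log2, y axis) of Sectm1b, Apoa1 assay m1, Fam3b and Lrp8 against the average level of 8 leukocyte markers (log2, x axis), 1 point per sample, with symbols for CEC, Nissle, DNBS and healthy. The 7 samples with an average above 0 have Sectm1b levels of 1.59 to 3.65, and the other 13 have levels of 4.11 to 5.20.

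Fam3b differed little between the groups and was highest in DNBS samples. Its level was 3.98, 5.0, 5.39, 4.55 and 5.37 in CEC 1, 3, 5, 7 and 8, and 4.94, 4.30, 4.65, 5.13 and 5.16 in Nissle 1 to 5. DNBS 1 to 5 had 5.47, 4.81, 5.63, 5.92 and 5.96, against 5.11, 4.69, 4.68, 5.61 and 5.0 in healthy 1b, 3, 4, 5 and 6. Every group overlapped the DNBS group, and 3 of 5 DNBS samples lay above all healthy samples. The means were 4.86 ± 0.60 in CEC, 4.84 ± 0.36 in Nissle, 5.56 ± 0.47 in DNBS and 5.02 ± 0.38 in healthy samples (log2, SD, n = 5 each). DNBS minus healthy was 0.54 (SE 0.29, 95% interval -0.06 to 1.13, limma adjusted p = 0.408). CEC minus DNBS was -0.70 (SE 0.29, limma adjusted p = 0.416) and Nissle minus DNBS was -0.72 (SE 0.29, limma adjusted p = 0.850).

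Centring the row blocks narrowed Fam3b within the healthy group. The 5 healthy levels then lay between 4.90 and 4.97 (4.93 ± 0.03, SD), and all 5 DNBS levels, between 5.16 and 5.93, lay above them, where 7.73% of all tested assays did not overlap after centring. The centred difference of DNBS minus healthy was 0.44, CEC minus DNBS was -0.34 and Nissle minus DNBS was -0.44. CEC minus healthy and Nissle minus healthy were -0.16 and -0.18 before centring, and 0.10 and 0.01 after it.

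Scgb3a1 was the only member detected in some samples and not in others, a pattern known when it was chosen and given here as a description. It amplified in 5 of 5 CEC, 5 of 5 Nissle, 3 of 5 DNBS and 0 of 5 healthy samples. Its Ct was 26.84, 29.29, 29.10, 29.78 and 30.50 in CEC 1, 3, 5, 7 and 8, and 28.62, 30.39, 28.05, 31.61 and 29.38 in Nissle 1 to 5. In DNBS 1 to 3 it was 28.52, 29.55 and 29.47, while DNBS 4 and 5 and the healthy samples reached no threshold within 40 cycles. Where it was detected the groups overlapped, with relative levels of -5.58 ± 1.45 in CEC (n = 5), -6.49 ± 1.16 in Nissle (n = 5) and -5.87 ± 0.76 in DNBS (n = 3) (log2, SD).

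Scgb3a1 had too few healthy values for the limma fit. It was the only one of 648 assays with no healthy value and at least 10 values in the other groups, and 19 assays had no healthy value and at least 1 elsewhere. Another assay without a healthy value had 3 values in each of the other groups, so being the only one depends on the cutoff of 10. In its row block, 47 of 54 assays had values in every sample. The suffix g1 marks an assay that may also amplify genomic DNA. The median level of the single-exon assays, which do so, was -0.19 to 0.64 in CEC, -0.40 to 0.09 in Nissle, -0.86 to 0.13 in DNBS and -0.04 to 0.90 in healthy samples, and its part in the detection of Scgb3a1 was not tested.

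**Figure D4:**
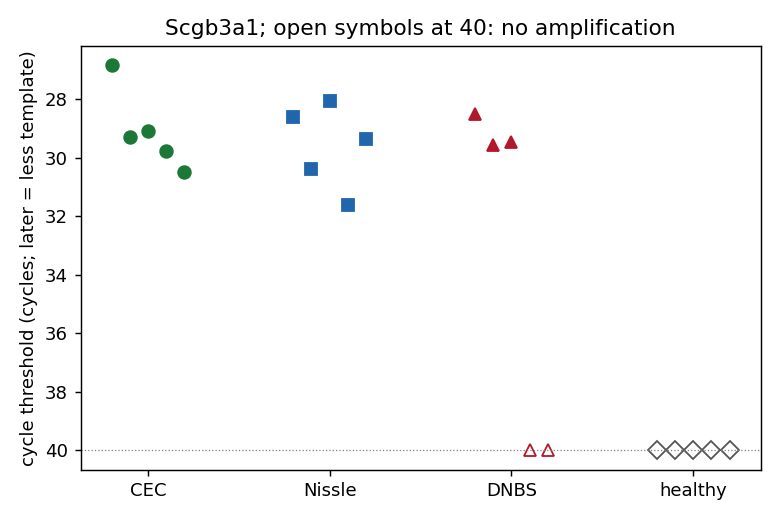
Cycle threshold of Scgb3a1 (y axis, cycles, drawn downward so that more template is higher) in each sample of the CEC, Nissle, DNBS and healthy groups; open symbols at 40 mark no amplification. The detected values lie between 26.84 and 31.61, and none of the 5 healthy samples has one.

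The mean of Apoa1 was highest in CEC and lowest in DNBS samples by both of its assays, with 2 exceptions for the m1 assay: under quantile normalization it stood 0.085 higher in DNBS than in healthy samples, and without Nissle 3, 4 and 5 Nissle minus DNBS was -0.10. With assay Mm00437569_m1, which spans an exon junction, the level was 8.93, 8.30, 8.91, 8.55 and 8.38 in CEC 1, 3, 5, 7 and 8, and 6.46, 8.25, 8.25, 8.09 and 8.67 in Nissle 1 to 5. It was 7.70, 6.26, 8.44, 7.75 and 7.12 in DNBS 1 to 5, against 8.76, 8.51, 8.58, 6.40 and 8.27 in healthy 1b, 3, 4, 5 and 6. The CEC samples lay close together, and 3 of them were above all DNBS samples. Nissle 1 and healthy 5 stood apart from the rest of their groups. With assay Mm00437568_g1 the level was 9.04, 8.02, 8.66, 7.85 and 7.96 in CEC, and 6.35, 8.25, 7.70, 7.73 and 8.37 in Nissle samples. It was 6.24, 6.01, 7.81, 7.15 and 6.37 in DNBS samples and 8.24, 8.44, 8.04, 5.42 and 7.08 in healthy samples. By this assay every CEC sample lay above every DNBS sample, as 3.16% of all tested assays did not overlap in that comparison.

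The means by the m1 assay were 8.62 ± 0.29 in CEC, 7.95 ± 0.86 in Nissle, 7.45 ± 0.82 in DNBS and 8.10 ± 0.97 in healthy samples (log2, SD, n = 5 each). By the g1 assay they were 8.31 ± 0.52, 7.68 ± 0.80, 6.71 ± 0.74 and 7.44 ± 1.25 in the same order. CEC minus DNBS, a contrast known when Apoa1 was chosen, was 1.16 by m1 (95% interval 0.22 to 2.11) and 1.59 by g1 (0.55 to 2.63). After centring of row blocks these were 0.88 and 0.84, and the groups overlapped by both assays. DNBS minus healthy was -0.65 by m1 (SE 0.45, limma adjusted p = 0.543) and -0.73 by g1 (SE 0.50, limma adjusted p = 0.537). Without healthy 5, whose Apoa1 blocks were shifted most, these were -1.08 and -1.23. Without DNBS 2 the m1 difference was -0.35, and without healthy 3 the g1 difference was -0.48. CEC minus healthy was 0.51 by m1 (limma adjusted p = 0.820) and 0.86 by g1 (limma adjusted p = 0.803), and 0.09 and 0.36 without healthy 5. After centring of row blocks CEC minus healthy was 0.13 by m1 and 0.30 by g1. Nissle minus DNBS was 0.49 by m1 and 0.96 by g1, and CEC minus Nissle was 0.67 and 0.63. Without Nissle 1, which stood apart, Nissle minus DNBS was 0.86 and 1.3 and CEC minus Nissle was 0.30 and 0.29. Without DNBS 2, Nissle minus DNBS by m1 was 0.19. After centring, Nissle minus DNBS was 0.29 by m1 and 0.31 by g1, and CEC minus Nissle was 0.58 and 0.53. Nissle minus healthy had opposite signs by the assays, -0.16 by m1 and 0.24 by g1, whereas after centring both were negative, -0.45 by m1 and -0.23 by g1.

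The 2 Apoa1 assays lie in different row blocks and tracked each other across samples. After subtraction of group means, Pearson's r was 0.91 and Spearman's rho was 0.90 over 20 samples (permutation p = 4e-05 for each, adjusted 0.00028 over 7 pairs of assays). Without Nissle 1 and healthy 5, the samples farthest from the median, r was 0.81. The difference between both assays within a sample had an SD of 0.39 log2 units, which was 0.21 after the blocks were centred, and r was then 0.97.

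Apoa1 and the epithelial marker average varied together within groups, and after centring of row blocks Sectm1b did so too. For Apoa1 with the average of Ccl25, Krt8 and Reg3g, r was 0.70 and rho was 0.66 over 20 samples after subtraction of group means (permutation p = 0.0006 and 0.0019, adjusted 0.00292 and 0.0145 over 8 relations with marker averages). Without Nissle 1 and Nissle 5, the samples farthest from the median, r was 0.59. After centring of blocks r was 0.74 and rho was 0.54 (adjusted permutation p = 0.0155 and 0.0627), and r was 0.43 without DNBS 2 and Nissle 1. For Sectm1b with the same markers r was 0.45 and rho was 0.32 before centring (adjusted permutation p = 0.196 and 0.441). After centring r was 0.80 and rho was 0.63 (adjusted permutation p = 0.0126 and 0.05), and r was 0.63 without DNBS 2 and Nissle 1. The relation was therefore not shown to be particular to Apoa1. Of the markers, Ccl25 and Reg3g differed in opposite directions between groups. Their differences were -1.49 and 0.56 in DNBS minus healthy, and 1.12 and -0.38 in CEC minus DNBS. The part of each single marker in these relations was not tested. Apoa1 by m1 lay between 6.26 and 8.93 in the 7 samples of high leukocyte average and between 6.40 and 8.91 in the 13 others. After centring of row blocks it lay between 5.87 and 8.65 in the 7 samples and between 7.87 and 8.87 in the 13 others. After subtraction of group means, r of Apoa1 with the leukocyte average was -0.37 and rho was -0.07 (adjusted permutation p = 0.245 and 0.835). With centred blocks these were -0.59 and -0.40 (adjusted permutation p = 0.0393 and 0.197), and r was -0.35 without CEC 3 and Nissle 1. These relations were chosen after values were seen. The marker average ranged from 7.75 to 8.59 in CEC, 7.23 to 8.48 in Nissle, 7.29 to 7.74 in DNBS and 7.58 to 8.47 in healthy samples, and its part in the group differences of Apoa1 was not tested.

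Apoa4 gave no amplification in any of the 20 samples, so neither a level nor a relation with Apoa1 could be given. It was 1 of 26 assays of the panel without a value in any sample. Of the 54 assays in its row block, 39 were measured in every sample and 4 in none. With no value in any sample, a failed assay and a transcript too low to detect cannot be told apart. The data therefore do not show that the transcript is absent.

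Lrp8, the receptor among the members, was highest in the DNBS group. Its level was -0.15, -1.78, -1.49, -1.69 and -1.26 in CEC 1, 3, 5, 7 and 8, and -1.16, -1.94, -0.28, -1.83 and -0.95 in Nissle 1 to 5. In DNBS 1 to 5 it was -0.37, 0.00, -0.25, 0.11 and -0.54, against -1.64, -2.28, -1.87, -0.44 and -1.09 in healthy 1b, 3, 4, 5 and 6. Before centring of row blocks the DNBS values were close together, and 4 of 5 lay above all healthy samples. In CEC and Nissle, 4 of 5 samples each lay below all DNBS samples. After centring the DNBS values reached from -1.33 to 0.40 (SD 0.69), and 4 of 5 still lay above all healthy samples. Below all DNBS samples then lay 3 CEC and 2 Nissle samples. Full separation from DNBS, which Lrp8 did not reach, was seen for 1.05% of tested assays in Nissle against DNBS.

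The means of Lrp8 were -1.27 ± 0.66 in CEC, -1.23 ± 0.68 in Nissle, -0.21 ± 0.27 in DNBS and -1.46 ± 0.71 in healthy samples (log2, SD, n = 5 each). DNBS minus healthy was 1.25 (SE 0.39, 95% interval 0.44 to 2.06, limma adjusted p = 0.122). CEC minus DNBS was -1.06 (SE 0.39, limma adjusted p = 0.385) and Nissle minus DNBS was -1.02 (SE 0.39, limma adjusted p = 0.850). CEC minus healthy was 0.19 and Nissle minus healthy was 0.23 (limma adjusted p = 0.916 and 0.849), with intervals of -0.62 to 1.0 and -0.58 to 1.04. With centred blocks DNBS minus healthy was 1.16, CEC minus DNBS was -0.70, Nissle minus DNBS was -0.73, CEC minus healthy was 0.45 and Nissle minus healthy was 0.42.

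**Figure D5:**
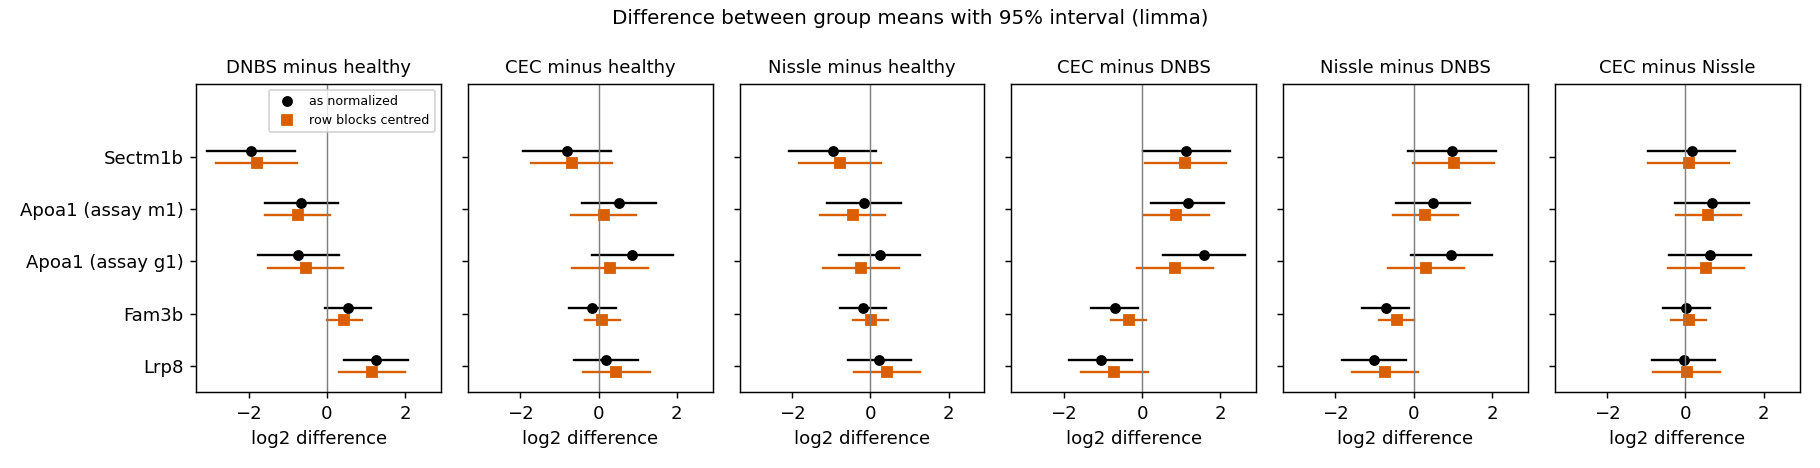
Difference between group means (log2, x axis) with its 95% interval from limma for 5 member assays, 1 panel per comparison; black circles are the normalized values and orange squares the values after centring of row blocks. The Sectm1b and Lrp8 differences of DNBS minus healthy are -1.94 and 1.25, and all 5 differences of CEC minus Nissle have intervals that include 0.

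Between both oral treatments none of the 5 member assays in limma's fit differed by more than 0.67. Scgb3a1, outside that fit, had means of -5.58 in CEC and -6.49 in Nissle samples, and its values in these groups overlapped. CEC minus Nissle was 0.16 for Sectm1b, 0.02 for Fam3b, -0.04 for Lrp8 and 0.67 and 0.63 for the Apoa1 assays (limma adjusted p = 0.998 for each). The intervals reached from -0.96 to 1.28, from -0.58 to 0.62, from -0.85 to 0.77, from -0.27 to 1.61 and from -0.42 to 1.67, so they include a difference of 1 log2 unit for Sectm1b and Apoa1. No member assay in limma's fit separated CEC from Nissle, where 0.351% of tested assays did not overlap, or CEC from healthy, where 0.879% did not.

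Among pairs of different members, no relation passed in the normalized values. After subtraction of group means, Sectm1b and Apoa1 had r = 0.43 and rho = 0.09 over 20 samples (permutation p = 0.0563 and 0.702, adjusted 0.197 and 0.727 over 7 pairs), and r was 0.00 without DNBS 2 and Nissle 1. With centred blocks r was 0.69 and rho was 0.55 (adjusted permutation p = 0.0321 and 0.0469), and r was 0.36 without the same samples. Sectm1b and Lrp8 had r = -0.33 and rho = -0.45 (permutation p = 0.181 and 0.0344, adjusted 0.422 and 0.121), and r was -0.37 without DNBS 2 and Nissle 1. With centred blocks r was -0.61 and rho was -0.70 (adjusted permutation p = 0.0479 and 0.00913), and r was also -0.61 without the same samples.

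As a description of all 20 samples, with group differences and shared row blocks left in, the assays most like Sectm1b among 543 were Ccl25, a small-intestinal chemokine (r = 0.92), Ltbp4 (0.91) and Nmi (0.91). Ltbp4 and Nmi share the row block of Sectm1b and gave way to C2 (0.94) and Cd74 (0.92) after centring, when Ccl25 had 0.94. The assays most like Apoa1 among 542 were Ephx2, a soluble epoxide hydrolase (r = 0.88), B2m (0.85) and Bmp6 (0.79), and after centring Ephx2 (0.87), Ccl25 (0.83) and Hdac5 (0.82). For Fam3b they were Irf3 of the same block (r = 0.85), Hgf (0.79) and Il12rb1 (0.79), and none of these stayed among the first 3 after centring. For Lrp8 they were the interleukin-4 receptor chain Il4ra (r = 0.70), Akt1 (0.68) and B4galt1 (0.67), with Il4ra at 0.75 after centring.

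Other genes of the same roles gave no call in any comparison. Of 48 lipoprotein and lipid transport genes, 7 were on the panel and 6 were tested, Apoa1 and Lrp8 among them. In DNBS against healthy 5 of the 6 were higher and 1 was lower, with a median of 0.53, against -0.07 over all tested assays. Olr1, the receptor for oxidized LDL, had the largest of these differences, 2.39 (SE 1.09, limma adjusted p = 0.331), and the nuclear receptor Pparg had 0.43 (SE 0.39, limma adjusted p = 0.675), which was 0.15 after centring. In CEC against DNBS 3 were higher and 3 lower, with a median of 0.01, against -0.02 over all assays. Apoe, the apolipoprotein ligand of Lrp8, stood 0.95 higher in CEC (SE 0.47, limma adjusted p = 0.459), which was 0.21 after centring of blocks, and Pparg differed by -0.49 there (SE 0.39, limma adjusted p = 0.615), which was -0.07 after centring.

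Of 48 secreted epithelial products, 20 were on the panel and 19 were tested, the members Sectm1b and Fam3b among them. In DNBS against healthy 10 were higher and 9 lower, with a median of 0.01 beside -0.07 over all assays, and in CEC against DNBS 8 were higher and 11 lower (median -0.03, beside -0.02). Ccl25 had a difference of -1.49 in DNBS minus healthy (SE 0.49, limma adjusted p = 0.150) and 1.12 in CEC minus DNBS (SE 0.49, limma adjusted p = 0.455). The epithelial cytokine Il18 had 1.03 (SE 0.39, limma adjusted p = 0.171) and the acute-phase protein gene Saa1 had 1.29 (SE 0.65, limma adjusted p = 0.380) in DNBS minus healthy, and Il18 had -0.65 in CEC minus DNBS (limma adjusted p = 0.540). After centring Il18 had 0.75 and -0.22 in these comparisons. Of 11 family members and partners of the 6 genes, 2 were measured. Fam3c and Oit1, which is also known as Fam3d, had -0.35 (SE 0.38) and -0.08 (SE 0.25) in DNBS minus healthy, neither of them called, and Oit1 had 0.07 after centring.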

How the data were processed

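Per the labels' protocols, total RNA was isolated from ileal mucosa with the mirVana kit and measured on the TaqMan OpenArray mouse inflammation panel. The deposited table holds Ct values, a score in cycles that the authors did not normalize, per the file headers; 40 stands for no amplification. Baseline and threshold settings are not given in the sources used here. Groups came from the treatment labels.

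Values of 40 were left missing. An assay's relative level was the average Ct of the 544 assays present in all samples, minus its own Ct. The comparisons used limma 3.58.1 (R 4.3.3), with 4 group means over 20 samples, eBayes with a trend, and Benjamini-Hochberg adjustment over the 569 assays with at least 3 values in each group, at 0.05. Intervals are 95% intervals of that fit. Detection was compared by two-sided Fisher's exact tests. Correlations were tested with 100000 permutations within groups, or, for 7 or 13 samples, over pairings (exact for 7). Python 3.11.15 and SciPy 1.17.1 were used. Row blocks were centred by subtracting, in each sample, the mean shift of each 54 rows. The limma and Fisher steps were tested on simulated data. The precision is limited by 5 samples a group; differences had a median SE of 0.42 log2 units.

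The 6 genes and the gene lists were chosen with earlier results of these data known. The named genes are the members, the 3 assays most like each, and up to 4 genes of each list with the smallest p in DNBS minus healthy or CEC minus DNBS. Deviations of same-numbered DNBS and healthy samples had correlations of 0.18, 0.14 and 0.49 for numbers 3, 4 and 5. In other comparisons they reached from -0.40 (Nissle and healthy, number 4) to 0.44 (CEC and Nissle, number 5). Samples of different numbers were not compared, so no pairing was shown, and the labels state none.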

Additional observations from a re-analysis of the deposited data

Results flagged for a closer look

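Among 22 groups of member values tested, 3 held a sample whose gap to its nearest neighbour passed Dixon's 95% limit; chance gives about 1 in 20 groups. Sectm1b in Nissle 1 was 2.16, while the other Nissle samples had 4.11 to 4.84, and it stayed apart after centring of row blocks (2.38). Apoa1 by assay m1 in Nissle 1 was 6.46, while the others had 8.09 to 8.67, and it was 6.54 after centring. That sample also had the highest leukocyte marker average (2.32). Apoa1 by assay m1 in healthy 5 was 6.40, while the other healthy samples had 8.27 to 8.76; after centring it was 7.87 and within the limit.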

How the results depend on the processing

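The direction of the Sectm1b, Fam3b and Lrp8 differences between DNBS and healthy, and between CEC or Nissle and DNBS, held under every alternative run, as did the signs of Sectm1b in CEC or Nissle against healthy and of Apoa1 in CEC against DNBS, healthy or Nissle. Member calls did not all hold. In DNBS against healthy, 0 member assays were called in the fit used above, 1 with only both groups in the fit and 3 with sample weights (Sectm1b, Lrp8 and Fam3b), and 0 to 1 when each sample was left out, the call being Sectm1b without DNBS 5 or Nissle 1. In CEC against healthy and in Nissle against healthy, 1 was called with undetermined values set to 40 (Scgb3a1, chosen for this pattern, so that the call is no support for it). In CEC against DNBS, 1 was called with sample weights (Sectm1b). Over all assays tested, DNBS against healthy gave 1 call in the fit used above, 9 with only both groups, 90 with sample weights, 2 with the replicate number as a block, 7 without DNBS 5 and 6 without Nissle 1, and CEC against DNBS gave 0 and, with sample weights, 21. With undetermined values set to 40, CEC against healthy gave 2 and Nissle against healthy 3. The cause was not tested, beyond the extra assays or fewer samples these settings bring. With the replicate number as a block, 0 member assays were called in every comparison; Apoa1 m1 in Nissle minus healthy was then 0.38, Fam3b in CEC minus Nissle -0.19 and in Nissle minus healthy 0.13, and Sectm1b in CEC minus Nissle -0.34. The numbers were not shown to pair the samples, and the block changed no call of a member.

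Other small differences changed sign. Without normalization, Apoa1 m1 in Nissle minus healthy was 0.28, Fam3b was -0.38 in CEC minus Nissle and 0.25 in Nissle minus healthy, and Sectm1b in CEC minus Nissle was -0.24. Under quantile normalization Apoa1 m1 was 0.085 in DNBS minus healthy and 0.24 in Nissle minus healthy, and Fam3b was -0.11 and 0.033 in CEC minus Nissle and Nissle minus healthy. Scaled to reference assays, CEC minus Nissle was -0.16 for Fam3b and -0.023 for Sectm1b. With sample weights Fam3b in CEC minus healthy was 0.21. With centred row blocks Apoa1 g1 in Nissle minus healthy was -0.23, Fam3b was 0.10 and 0.0059 in CEC and Nissle minus healthy, and Lrp8 in CEC minus Nissle was 0.029. Without Nissle 3, 4 and 5, Apoa1 g1 and Lrp8 in Nissle minus healthy were -0.15 and -0.091, Apoa1 m1 in Nissle minus DNBS was -0.10, and Lrp8 in CEC minus Nissle was 0.28. Without the 3 samples of widest block shifts, Apoa1 g1 in Nissle minus healthy was -0.27.

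Leaving out each sample in turn gave -0.27 to 0.57 for Apoa1 g1 and -0.58 to 0.21 for Apoa1 m1 in Nissle minus healthy, and -0.11 to 0.24 for Fam3b, -0.32 to 0.20 for Lrp8 and -0.31 to 0.50 for Sectm1b in CEC minus Nissle. It gave -0.30 to 0.054 for Fam3b and -0.091 to 0.45 for Lrp8 in CEC minus healthy, and -0.0047 to 0.49 for Lrp8 in Nissle minus healthy. Pearson's r ranged from -0.39 to 0.13 for Apoa1 with Fam3b, from -0.36 to 0.054 for Apoa1 with Lrp8 and from -0.23 to 0.35 for Fam3b with Lrp8. Without subtraction of group means r was 0.34 for Fam3b with Lrp8 and -0.063 for Sectm1b with Fam3b, which was -0.16 with centred blocks. The cause of these changes of sign was not tested. The centring, the samples of widest shifts, the pairs of members and the relations with markers were chosen after seeing the data. The relation of Apoa1 with Apoa4 could not be computed.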
